A study of Mus musculus with 6 samples.

Results

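The amino acid transporter genes described here were the 49 genes of the solute carrier families SLC1, SLC3, SLC6, SLC7, SLC36, SLC38 and SLC43 in the deposited expression table, chosen by their symbols alone (Slc, the family number, the letter a and a member number) from 20856 genes with values. RNA had been sequenced from 6 cell lines grown out of liver tumors of C57BL/6 mice. Each tumor had been started by hydrodynamic tail vein injection, which delivers DNA to hepatocytes, of a *Myc* transposon together with a pX330 plasmid that carries Cas9 and a guide RNA. The guide targeted *Trp53* in 3 lines (*Myc*; sgTrp53) and *Kmt2c*, the gene of the histone methyltransferase MLL3, in the other 3 (*Myc*; sgKmt2c). All 6 lines thus carry the *Myc* transposon, no line had an untargeted guide, and a difference between the genotypes can come from either guide. The cells received no treatment and were kept in DMEM with serum on collagen, and each library is 1 line. The lines of a genotype came from different mice, per the study. The names of sgKmt2c lines 2 and 3 (2A and 2T1) share a number, so a fit with both averaged is given at the end. The comparison asks whether tumor lines with a guide against *Kmt2c* carried other transporter transcripts than tumor lines with a guide against *Trp53*.

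Mammalian cells take up amino acids through carriers that couple the amino acid to sodium or protons, or that exchange one amino acid for another. The exchangers of the SLC7 family include light chains that reach the plasma membrane bound to a heavy chain, *Slc3a2* (4F2hc, CD98) or *Slc3a1* (rBAT). Glutamine brought in by sodium-coupled carriers such as *Slc1a5* and *Slc38a2* can be exchanged for leucine and other essential amino acids by *Slc7a5* with *Slc3a2*, and leucine and arginine feed the activation of the growth kinase complex mTORC1 at the lysosome. Lack of amino acids raises the transcription factor ATF4, which activates transporter genes such as *Slc7a11*, *Slc7a5*, *Slc3a2* and *Slc38a2*. Rapidly growing tumor cells commonly carry much *Slc1a5*, *Slc7a5* and *Slc3a2*, whereas *Slc38a3*, *Slc38a4* and *Slc7a2* are known as transporters of the normal liver. The families also hold members with other substrates, such as the taurine transporter *Slc6a6*, the creatine transporter *Slc6a8* and carriers of neurotransmitters.

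The libraries held 3680068 to 6878625 reads on genes. *Trp53* stood at 17.2 to 19.4 RPKM (reads per kilobase of transcript, scaled to the reads of the library) in the sgTrp53 lines and at 92.2 to 124 RPKM in the sgKmt2c lines, without overlap, whereas *Kmt2c* and *Myc* overlapped between the genotypes (9.51 to 25.0 and 47.1 to 98.1 RPKM over all lines). *Alb*, the gene of albumin, stood at 0.644 to 4.36 RPKM in all 6 lines. The sgKmt2c line 1 stood apart from the other 5. Its 9 measured hepatocyte markers summed to 5619 RPKM (2.59 to 309 in the other sgKmt2c lines and 17.1 to 67.8 in the sgTrp53 lines), and its 6 epithelial markers summed to 6801 RPKM (238 to 678 and 63.5 to 1013). *Apob* at 4385 RPKM and *Hnf4a* at 1186 RPKM carried most of the hepatocyte sum, and no other hepatocyte marker was over 19.3 RPKM (*Afp*) in that line. Their listed transcript lengths were 1118 and 431 bases. A short listed length raises RPKM relative to other genes, and these lengths were not checked, so the size of the sum is uncertain. In reads, *Apob* had 23099 in that line and 1 to 616 in the others. The 8 fibroblast markers summed to 0.282 RPKM in sgKmt2c line 1, with *Pdgfra*, *Pdgfrb*, *Dcn*, *Lum*, *Col1a2* and *Thy1* at 0, against 110 to 149 RPKM in the other sgKmt2c lines and 15 to 986 in the sgTrp53 lines. *Lum* and *Pdgfra* were under 1 RPKM in every line, and *Dcn* and *Thy1* were at 0 in sgKmt2c line 2 and sgTrp53 line 1, respectively, too. *Col3a1* carried most of the sum in sgTrp53 line 2 (814 RPKM) and in sgKmt2c lines 2 and 3 (115 and 92.9 RPKM). The 7 immune markers summed to 21.7 to 58.2 RPKM in the sgTrp53 lines and 5.51 to 15.2 in the sgKmt2c lines. *Cd3e* and *Cd79a* were at 0 throughout and *Ptprc* at no more than 0.07 RPKM. *Lyz2* stood at 17.1 to 45.3 RPKM in the sgTrp53 lines and 0 to 12.4 in the sgKmt2c lines. *Csf1r* stood at 1.70 to 9.999 and at 0 to 0.967 RPKM. Neither overlapped between the genotypes (unadjusted p = 0.0105 and 0.0122, adjusted p = 0.427 and 0.440, limma). *Cd68*, the other tested immune marker, overlapped (log2 fold change -0.17). The 5 endothelial markers summed to 0.36 to 1.27 RPKM over all lines. The part of these cell type programs in the values below was not tested, and the fold changes of all tested members without sgKmt2c line 1 stand in the plot of fold changes, with values in the text where that line sets them. In RNA from a whole culture, fewer cells of a type and less RNA per cell cannot be told apart.

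No amino acid transporter gene differed between the genotypes past the test. A total of 23 of the 49 members stood at 1 RPKM or more in 3 or more libraries and were tested with limma on log2(RPKM + 1). Another 21 had reads but did not reach 1 RPKM in 3 libraries, though some stood well above it in fewer. The remaining 5 had no read in any library, which allows up to 3 reads in each. Of the 23, 0 had an adjusted p-value under 0.05 (limma), with member values from 0.579 to 0.992, beside 15 of 11617 genes or 0.129% of all genes tested. An unadjusted p-value under 0.05 (limma) was reached by 2 members, *Slc38a1* and *Slc1a5*, beside 8.58% of all genes tested. For 0 of the 23 tested members did the 3 lines of one genotype all lie above the 3 lines of the other, beside 16.2% of all genes tested. A log2 fold change above 0 (higher mean in sgKmt2c) was seen for 16 members and one below 0 for 7, with a median of 0.14 beside -0.09 for all genes tested. That median was 0.02 without sgKmt2c line 1. For a single gene, an exact permutation test (two-sided) of 3 lines against 3 gives a p of 0.1 at the lowest.

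**Figure D1:**
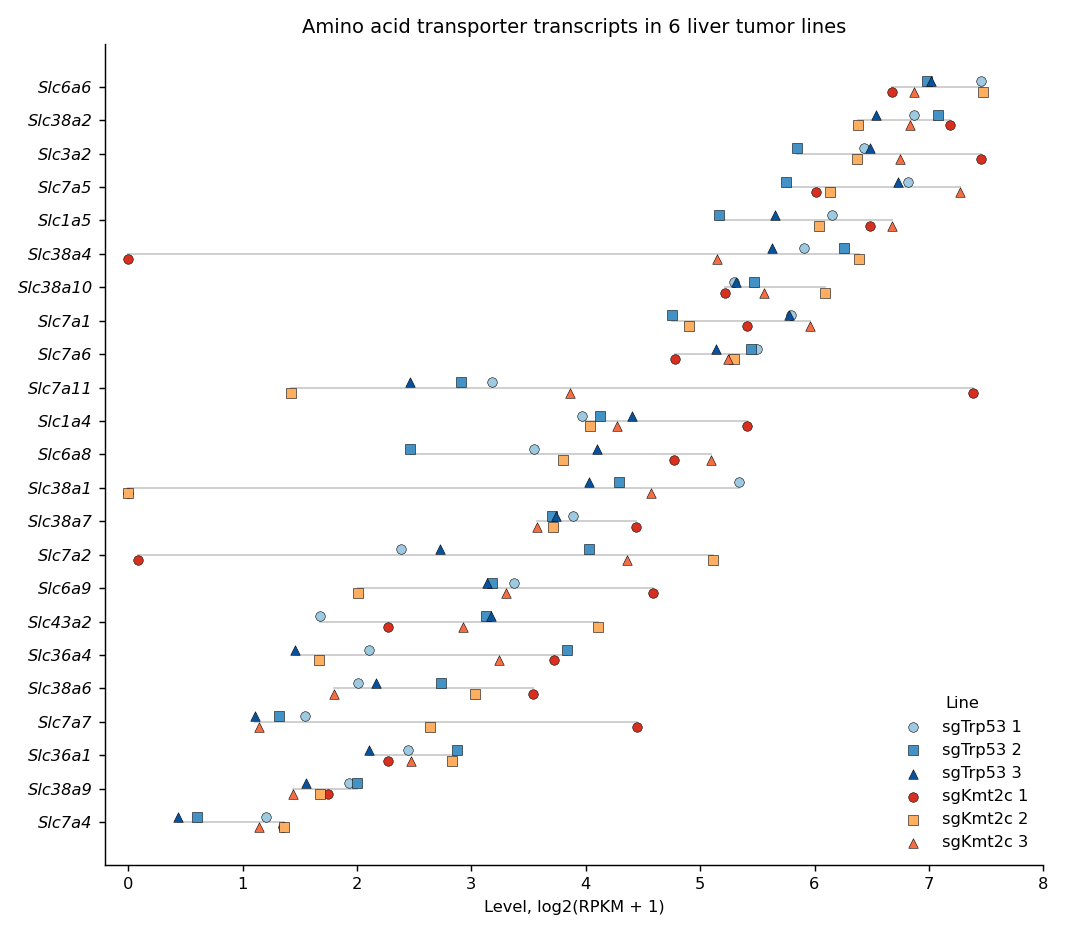
Level of each of the 23 tested transporter genes (vertical axis, ordered by mean) in each of the 6 lines, as log2(RPKM + 1); blue symbols are the sgTrp53 lines, red and orange symbols the sgKmt2c lines, and a grey line spans the range of a gene. Ranges overlap between the genotypes for every gene, and *Slc38a4*, *Slc38a1*, *Slc7a2* and *Slc7a11* have lines far from the rest.

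The members varied widely from line to line within a genotype. The median range over the 6 lines was 1.53 on the log2(RPKM + 1) scale for the tested members and 1.06 for all genes tested, and 5 members (*Slc38a4*, *Slc7a11*, *Slc38a1*, *Slc7a2* and *Slc7a7*) had a range over 3, beside 8.8% of all genes tested. The median SD within a genotype was 0.36 in the sgTrp53 lines and 0.67 in the sgKmt2c lines for the members, and 0.25 and 0.41 for all genes tested on the same scale. At the other end, 8 members had a range under 1. For 8 members the 95% confidence interval of the log2 fold change excluded a difference of 1 in either direction on the log2(RPKM + 1) scale. For low genes such as *Slc38a9* this does not exclude a 2-fold difference in RPKM. The shares of all genes tested for these counts were not taken, so they describe the members only. *Slc6a6*, *Slc38a2*, *Slc38a10*, *Slc7a6*, *Slc38a9*, *Slc38a7*, *Slc36a1* and *Slc7a4* were the members of narrow range on this scale. The added 1 narrows the range of low genes such as *Slc7a4* (0.354 to 1.57 RPKM) and *Slc38a9* (1.71 to 3.00 RPKM), so these are not shown to be steady. Line 1 of sgKmt2c held the highest level of 8 tested members (34.8%, beside 23.6% of all genes tested) and the lowest of 6 (26.1%, beside 35.9%).

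**Figure D2:**
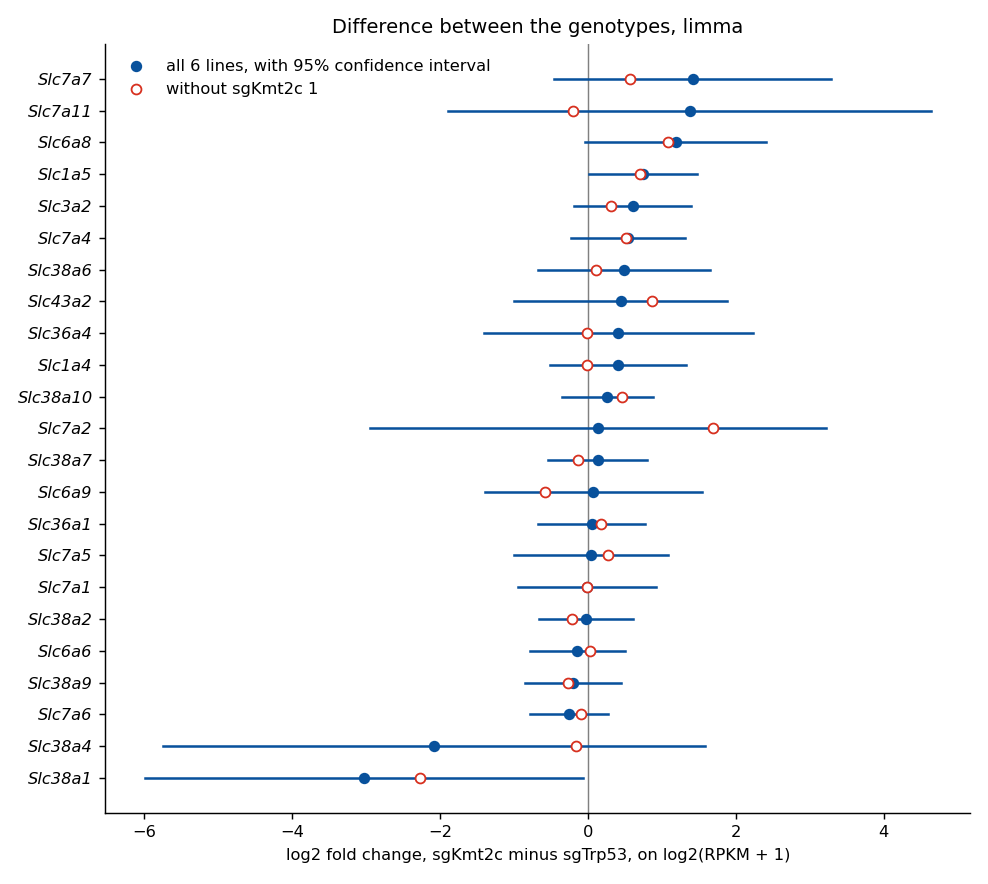
The log2 fold change of each tested transporter gene (sgKmt2c minus sgTrp53, limma on log2(RPKM + 1), horizontal axis) with its 95% confidence interval over 6 lines in blue, and the estimate without sgKmt2c line 1 as open red circles. The interval stays on one side of 0 only for *Slc38a1* and *Slc1a5*, and the estimate for *Slc7a11* moves from 1.37 to -0.21 without that line.

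The heavy chain *Slc3a2* (chr19:8706882-8723369, the span of the gene in GRCm38) was among the most abundant members, with 85.3, 56.5 and 88.5 RPKM in sgTrp53 lines 1, 2 and 3 and 175, 81.6 and 107 RPKM in sgKmt2c lines 1, 2 and 3. Of the sgKmt2c lines, 2 lay above all sgTrp53 lines and line 2 lay among them. The log2 fold change was 0.60 (SE 0.33, adjusted p = 0.643, limma) and 0.31 without sgKmt2c line 1. Its main partner *Slc7a5* (LAT1), the exchanger of large neutral amino acids, stood at 112, 52.7 and 105 RPKM in the sgTrp53 lines and 63.4, 69.3 and 154 RPKM in the sgKmt2c lines. The log2 fold change of *Slc7a5* was 0.04 (SE 0.44, 95% confidence interval -1.0 to 1.08, adjusted p = 0.980, limma), so a 2-fold difference in either direction was not excluded. *Slc7a6*, a light chain that exchanges cationic for neutral amino acids, held 44.0, 42.7 and 34.2 RPKM in the sgTrp53 lines and 26.5, 38.3 and 36.8 RPKM in the sgKmt2c lines, and had a log2 fold change of -0.25 (SE 0.22, adjusted p = 0.743, limma), or -0.09 without sgKmt2c line 1.

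*Slc7a11* (xCT), the light chain that imports cystine in exchange for glutamate and so feeds glutathione synthesis, had the widest levels of the light chains. It stood at 8.07, 6.53 and 4.50 RPKM in the sgTrp53 lines and at 167, 1.68 and 13.5 RPKM in the sgKmt2c lines. The high level was that of sgKmt2c line 1 alone, with 1899 reads against 15 to 140 in the other 5 libraries, and sgKmt2c line 2 had the lowest. The log2 fold change was 1.37 (SE 1.37, adjusted p = 0.769, limma), -0.21 without sgKmt2c line 1 and 2.77 without sgKmt2c line 2. *Slc7a7*, the light chain known for lysinuric protein intolerance, which exchanges cationic for neutral amino acids, stood at 1.92, 1.5 and 1.16 RPKM in the sgTrp53 lines and 20.8, 5.22 and 1.21 RPKM in the sgKmt2c lines. Again line 1 was highest and line 3 lay among the sgTrp53 lines, with a log2 fold change of 1.42 (SE 0.78, adjusted p = 0.646, limma) and 0.56 without sgKmt2c line 1.

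**Figure D3:**
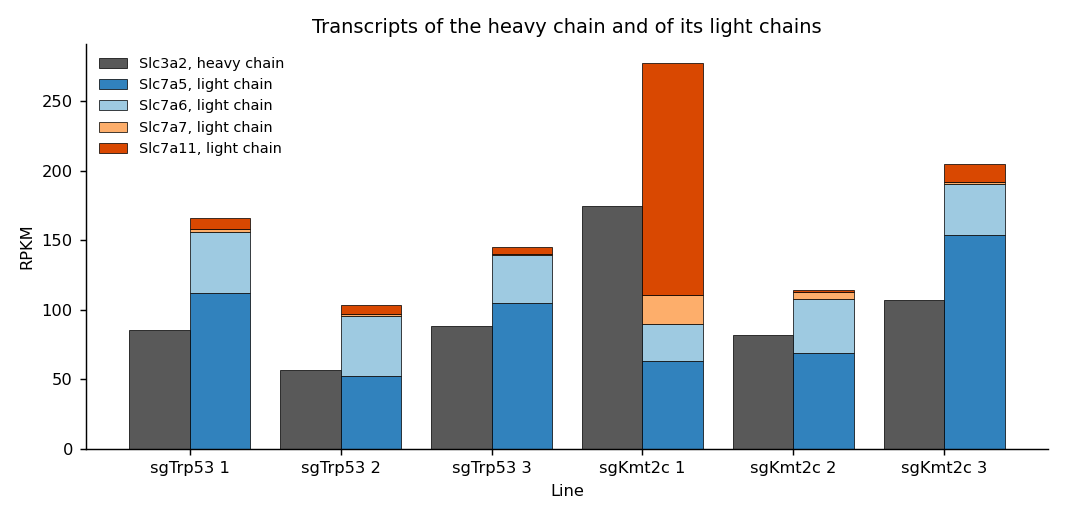
RPKM (vertical axis) of the heavy chain *Slc3a2* (grey bars) and, stacked beside it, of the light chains *Slc7a5*, *Slc7a6*, *Slc7a7* and *Slc7a11* in each of the 6 lines. *Slc7a11* makes up 60.1% of the stacked bar in sgKmt2c line 1 and 1.5% to 6.6% in the other 5 lines.

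Seen within each line on the length-adjusted RPKM scale, the light chains *Slc7a5*, *Slc7a6*, *Slc7a7*, *Slc7a8* and *Slc7a11* summed to 1.41 to 1.95 times the level of *Slc3a2*, with 1.59 in sgKmt2c line 1. *Slc7a5* supplied 50.8% to 74.8% of the light chain sum in 5 lines but 22.9% in sgKmt2c line 1, where *Slc7a11* supplied 60.1%. The deposited table divides *Slc7a11* by a transcript length of 2419 bases, 26.2% of the longest coding transcript in GENCODE, which raises its RPKM relative to other genes. With the longer length its share in sgKmt2c line 1 was 28.3% and that of *Slc7a5* 41.1%, against 53.3% to 78.6% for *Slc7a5* in the other 5 lines. The ratio of light chains to *Slc3a2* was then 0.884 in sgKmt2c line 1 and 1.39 to 1.88 in the other lines, so whether that line keeps the ratio of the others depends on the length used. The ratio of the RPKM of a gene between lines does not depend on this length. Its values on the log2(RPKM + 1) scale do, through the added 1, and so do its fitted fold change and the filter at 1 RPKM. The kidney and gut heavy chain *Slc3a1* had 5, 4 and 11 reads in the sgTrp53 lines and 27, 2 and 3 in the sgKmt2c lines, too few for the test. Its partner *Slc7a9* had 0, 0 and 0 reads and 43, 0 and 1 reads. Both chains of this cystine transporter of the kidney thus had their highest count in sgKmt2c line 1.

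Windows from 250 bases before to 50 bases after the transcription start (RefSeq, GRCm38.p6) were at hand for 33 of the 49 members, 16 of them tested. The C/EBP-ATF response element, through which ATF4 acts, was searched on both strands as TGATGNAAN (N stands for any base), letters chosen after the expression values had been seen. It occurred in 3 members, *Slc7a11*, *Slc7a7* and *Slc1a4*, and in 4.5% of all 27025 genes with a window. Each of these 3 had its highest level in sgKmt2c line 1, as did 8 of the 16 tested members with a window. The stretches that hold the matches are shown 5′ to 3′ on the strand of the gene, with the matched letters in capitals, for a reader to see how they lie. That of *Slc7a11* (chr3:50443623-50443709, minus strand, 96 to 10 bases before the start) holds a forward and a reverse match 9 bases apart. *Slc7a7* has a match between 171 and 103 bases before one start (chr14:54418047-54418115, minus strand), the stretch shown, and another that reaches over that start. In *Slc1a4* the reverse match reaches over the start itself (chr11:20332710-20332739, minus strand).
Slc7a11: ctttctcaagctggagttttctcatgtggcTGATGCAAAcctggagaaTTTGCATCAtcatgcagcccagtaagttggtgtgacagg
Slc7a7: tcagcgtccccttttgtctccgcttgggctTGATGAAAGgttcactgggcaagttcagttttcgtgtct
Slc1a4: agcctccagcgtgcctcctgcGTTGCATCA
The core of the antioxidant response element, TGACNNNGC, was found in windows of 8 members, 5 of them tested, and of 14.0% of all genes, and the E-box CACGTG, to which MYC binds with MAX, in windows of 6 members, 2 of them tested, and of 8.09% of all genes. Of the tested members with these letters, 2 and 1 had their highest level in sgKmt2c line 1. In *Slc36a1* a match of each overlaps the other near the start. A match of letters is a description of the window and no measure of binding.

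Among the SLC1 family, *Slc1a5* (ASCT2), the sodium-coupled exchanger that brings glutamine into growing cells, had the lowest unadjusted p-value of the members with a positive log2 fold change. Its span in GRCm38 is chr7:16781346-16798274. It stood at 70.0, 34.8 and 49.4 RPKM in the sgTrp53 lines and at 88.4, 64.7 and 102 RPKM in the sgKmt2c lines. The ranges overlapped, since sgKmt2c line 2 lay below sgTrp53 line 1. The means were 51.4 ± 17.7 and 84.9 ± 18.7 RPKM (SD, n = 3 lines each), a log2 fold change of 0.74 (SE 0.31, 95% confidence interval 0.01 to 1.48) with an unadjusted p = 0.0470 and an adjusted p = 0.580 (limma). Leaving out a line in turn gave 0.50 to 0.99. The lowest was without sgTrp53 line 2, which held the lowest level (unadjusted p = 0.146, limma), and the highest was without sgTrp53 line 1. The related *Slc1a4* (ASCT1), a carrier of serine and other small neutral amino acids, is named here after its values were seen, as are *Slc7a2*, *Slc6a9*, *Slc36a1*, *Slc36a4*, *Slc38a7*, *Slc7a9* and the members under the filter other than *Slc3a1* and *Slc6a17*. It stood at 14.7, 16.5 and 20.1 RPKM and at 41.5, 15.4 and 18.3 RPKM, so that only sgKmt2c line 1 left the range of the sgTrp53 lines on the upper side. Its log2 fold change was 0.41 (SE 0.38, adjusted p = 0.760, limma) and -0.01 without that line. The glutamate transporters of the family were low, with 1 exception in a single line. *Slc1a3* (GLAST), best known from glia, had 1, 151 and 3 reads in the sgTrp53 lines and 0, 1296 and 11 reads in the sgKmt2c lines, which is 84.4 RPKM in sgKmt2c line 2 and no more than 6.82 RPKM elsewhere. It did not reach the filter for the test.

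On the log2(RPKM + 1) scale, the SLC38 family of sodium-coupled neutral amino acid transporters held both the narrowest and the widest range of the tested members. *Slc38a1*, *Slc38a2* and *Slc38a4* (SNAT1, SNAT2 and SNAT4), which carry glutamine, alanine and other neutral amino acids, lie next to each other on chromosome 15 at chr15:96571418-96642913, chr15:96687394-96699698 and chr15:96994823-97055956 (GRCm38). The gaps between them are 44.5 and 295.1 kb. *Slc38a1* stood at 39.5, 18.6 and 15.3 RPKM in the sgTrp53 lines and at 0, 0 and 22.8 RPKM in the sgKmt2c lines. It thus had no read in 2 sgKmt2c libraries and a level within the sgTrp53 range in the third. A count of 0 allows up to 3 reads, so *Slc38a1* was at least 175-fold lower in sgKmt2c line 1 and at least 137-fold lower in sgKmt2c line 2 than in the lowest line that had it. The fitted log2 fold change was -3.03 (SE 1.24, unadjusted p = 0.0461, adjusted p = 0.579, limma), and its size depends on the pseudocount because of the lines at 0. With a line left out it was -4.56 to -2.27. The lowest adjusted p-value that it or any tested member reached with a line left out was 0.0778 (limma), for *Slc38a1* without sgKmt2c line 3, the line that carries it.

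*Slc38a4*, a transporter of the normal liver, stood at 59.0, 75.6 and 48.3 RPKM in the sgTrp53 lines and at 0, 83.0 and 34.4 RPKM in the sgKmt2c lines. Only sgKmt2c line 1 lacked it, where it was at least 212-fold lower than in the lowest other line. The fitted log2 fold change was -2.08 (SE 1.53, adjusted p = 0.717, limma) and -0.16 without that line. *Slc38a2* lies between these genes and had reads in every line, at 116, 134 and 91.8 RPKM in the sgTrp53 lines and 144, 82.4 and 113 RPKM in the sgKmt2c lines, the highest being sgKmt2c line 1. Its log2 fold change was -0.03 (SE 0.26, 95% confidence interval -0.66 to 0.60, adjusted p = 0.976, limma), which excludes a 2-fold difference. Among the summed RPKM of these 3 genes, *Slc38a2* made up 49.8% to 66.5% in 5 lines and 100% in sgKmt2c line 1. No read at all beside more than 10 RPKM in at least 3 other lines was seen for 53 genes (0.456% of all genes tested) in sgKmt2c line 1, among them *Slc38a1* and *Slc38a4*, and for 17 genes (0.146%) in sgKmt2c line 2, among them *Slc38a1*. It was seen for 0 genes in the other 4 lines. The flanking gene *Scaf11* held 43.9 to 59.7 RPKM in all 6 lines, and *Amigo2* on the other side no more than 1.06 RPKM.

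**Figure D4:**
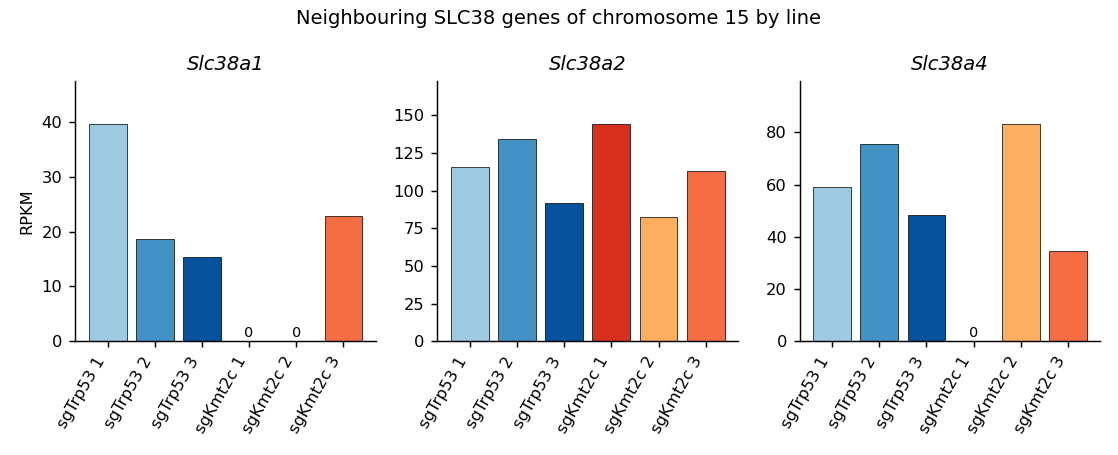
RPKM (vertical axes, each starting at 0) of the neighbouring genes *Slc38a1*, *Slc38a2* and *Slc38a4* of chromosome 15 in each of the 6 lines; a 0 marks a library without a read. *Slc38a1* is at 0 in sgKmt2c lines 1 and 2 and *Slc38a4* in sgKmt2c line 1, while *Slc38a2* stays between 82.4 and 144 RPKM in all lines.

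Of the other SLC38 members, *Slc38a10* stood at 38.4, 43.2 and 38.8 RPKM in the sgTrp53 lines and 36.3, 67.2 and 46.1 RPKM in the sgKmt2c lines, with a log2 fold change of 0.26 (SE 0.25, adjusted p = 0.764, limma). *Slc38a9*, the lysosomal arginine sensor upstream of mTORC1, stood at 2.80, 3.00 and 1.94 RPKM and at 2.36, 2.19 and 1.71 RPKM, with a log2 fold change of -0.21 (SE 0.27, 95% confidence interval -0.86 to 0.44, adjusted p = 0.815, limma). It had the narrowest range of the tested members on the log2(RPKM + 1) scale, where the added 1 narrows the range of low genes. Its listed transcript length of 8904 bases was 292% of the longest coding transcript in GENCODE, which lowers its RPKM. *Slc38a6* stood at 3.03, 5.64 and 3.49 RPKM and at 10.6, 7.16 and 2.47 RPKM, with sgKmt2c line 3 lowest of all 6, and a log2 fold change of 0.48 (SE 0.49, adjusted p = 0.770, limma). Without sgKmt2c line 1 it was 0.11 and without sgKmt2c line 3 it was 0.98 (unadjusted p = 0.0348, limma). *Slc38a7*, a glutamine carrier of the lysosome, stood between 10.9 and 20.8 RPKM with its highest level in sgKmt2c line 1. The hepatic glutamine transporter *Slc38a3* was under the filter, with 27, 5 and 309 reads in the sgTrp53 lines and 2, 5 and 10 in the sgKmt2c lines, so that a single sgTrp53 line held most of its reads.

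The cationic amino acid transporters import arginine and lysine. *Slc7a1* (CAT1), the widely expressed form, stood at 54.5, 26 and 53.7 RPKM in the sgTrp53 lines and 41.4, 28.9 and 61.4 RPKM in the sgKmt2c lines, and its log2 fold change of -0.02 (SE 0.39, 95% confidence interval -0.95 to 0.92, adjusted p = 0.992, limma) excludes a 2-fold difference. *Slc7a2* (CAT2), the form of normal liver, stood at 4.24, 15.3 and 5.61 RPKM and at 0.0577, 33.5 and 19.6 RPKM. The low value is 1 read in sgKmt2c line 1, whereas the other 2 sgKmt2c lines lay above all sgTrp53 lines. Its log2 fold change was accordingly 0.14 over 6 lines (SE 1.29, adjusted p = 0.976, limma) and 1.69 without sgKmt2c line 1 (unadjusted p = 0.0192, adjusted p = 0.453, limma). *Slc7a4*, a relative whose transport activity is not settled, stood at 1.30, 0.516 and 0.354 RPKM and at 1.55, 1.57 and 1.21 RPKM, with 8 to 26 reads a library and a log2 fold change of 0.54 (SE 0.32, adjusted p = 0.669, limma). *Slc7a3* (CAT3) was under the filter with 34, 9 and 35 reads against 6, 2 and 4.

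In the SLC6 family the taurine transporter *Slc6a6* had the highest mean level of all 49 members, at 175, 126 and 128 RPKM in the sgTrp53 lines and 101, 177 and 116 RPKM in the sgKmt2c lines. Its highest and its lowest level were both in sgKmt2c lines, and the log2 fold change was -0.15 (SE 0.27, 95% confidence interval -0.78 to 0.49, adjusted p = 0.874, limma). The creatine transporter *Slc6a8*, on the X chromosome, stood at 10.7, 4.50 and 16.1 RPKM in the sgTrp53 lines and 26.4, 12.9 and 33.1 RPKM in the sgKmt2c lines. Only sgKmt2c line 2 lay within the sgTrp53 range. The log2 fold change was 1.19 (SE 0.51, 95% confidence interval -0.03 to 2.41, unadjusted p = 0.0551, adjusted p = 0.592, limma) and 1.08 without sgKmt2c line 1. Its size depended on other lines, at 0.74 without sgTrp53 line 2 and 1.57 without sgKmt2c line 2. The glycine transporter *Slc6a9* stood at 9.33, 8.07 and 7.80 RPKM and at 23.1, 3.02 and 8.85 RPKM, the highest and the lowest level both in sgKmt2c lines, with a log2 fold change of 0.07 (SE 0.61, adjusted p = 0.975, limma) and -0.58 without sgKmt2c line 1. *Slc6a17*, a vesicular carrier of neutral amino acids known from neurons, was under the filter but had 213, 23 and 128 reads in the sgTrp53 lines against 0, 1 and 17 in the sgKmt2c lines.

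The proton-coupled SLC36 carriers and the SLC43 carriers were low. *Slc36a1*, which exports amino acids from the lysosome, stood at 3.31 to 6.32 RPKM in the sgTrp53 lines and 3.83 to 6.13 RPKM in the sgKmt2c lines, a log2 fold change of 0.05 (SE 0.30, adjusted p = 0.961, limma). *Slc36a4* stood at 1.75 to 13.2 RPKM and at 2.18 to 12.2 RPKM, with a log2 fold change of 0.41 (SE 0.76, adjusted p = 0.874, limma) that was -0.01 without sgKmt2c line 1. *Slc43a2* (LAT4), a carrier of large neutral amino acids, stood at 2.19, 7.75 and 8.0 RPKM and at 3.82, 16.3 and 6.62 RPKM, with a log2 fold change of 0.45 (SE 0.60, adjusted p = 0.819, limma) that was -0.06 without sgKmt2c line 2. The genotypes overlapped for *Slc36a1*, *Slc36a4* and *Slc43a2*.

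Among the 21 members with reads under the filter, 4 had their genotypes apart, all lower in the sgKmt2c lines (*Slc7a3*, *Slc6a17*, *Slc43a1* and *Slc7a8*), where 6.4% of the 7566 genes under the filter with reads lay apart in that direction. Any gene whose genotypes lie apart has an exact two-sided permutation p of 0.1, the smallest that 3 lines against 3 allow. The 0.1 of these members thus adds nothing to their separation. *Slc43a1* (LAT3) had 5, 59 and 6 reads in the sgTrp53 lines and none in the sgKmt2c lines, and *Slc7a8* (LAT2) had 6, 6 and 7 reads against 0, 3 and 3. The sgKmt2c libraries were shallower (3680068 to 4704539 reads against 5312182 to 6878625), and at such counts the genotypes can separate by few reads. The intestinal and renal transporter *Slc6a19* had 51 reads in sgKmt2c line 1 and 0 to 9 elsewhere. The other members under the filter, which include the glutamate transporters *Slc1a1*, *Slc1a2*, *Slc1a6* and *Slc1a7* and the noradrenaline and serotonin transporters *Slc6a2* and *Slc6a4*, had at most 83 reads in a library.

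The genes that act with the transporters were taken as lists. Of 22 genes of the amino acid response that ATF4 controls, all were tested and 0 passed the adjusted threshold in either direction (limma). Their median log2 fold change was 0.19, with 17 above 0 and 5 below. In sgKmt2c line 1, 17 of the 22 had their highest level, beside 23.6% of all genes tested. The pseudokinase gene *Trib3* stood at 41.3, 22.7 and 41.2 RPKM in the sgTrp53 lines and at 617, 8.61 and 69.6 RPKM in the sgKmt2c lines. *Atf4* itself stood at 165, 104 and 190 RPKM and at 474, 78.5 and 190 RPKM, and *Chac1*, which degrades glutathione, at 6.61, 3.44 and 9.93 RPKM and at 47.6, 2.98 and 10.6 RPKM. All 3 were highest in sgKmt2c line 1 and lowest in sgKmt2c line 2, as was *Slc7a11*. These 3, *Asns* and *Psat1* were not named by a rule fixed beforehand. *Stc2*, *Mthfd2*, *Psat1*, *Psph* and *Shmt2* had their highest level in other lines, and a link of the transporters to the response was not tested. *Asns* and *Psat1*, enzymes of asparagine and serine synthesis, were less divided, with 71.2 to 200 RPKM and 141 to 267 RPKM over all lines.

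**Figure D5:**
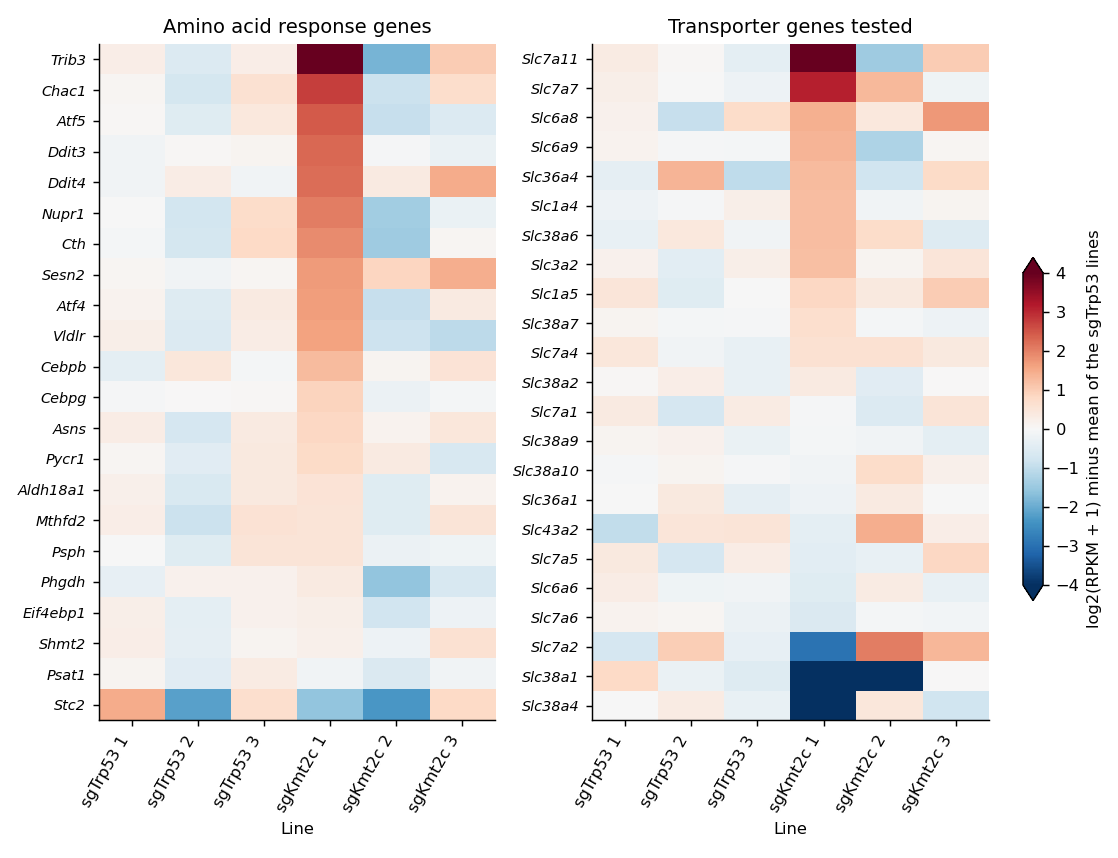
Heat maps of 22 amino acid response genes (left) and the 23 tested transporter genes (right) in the 6 lines, each value being log2(RPKM + 1) minus the mean of the sgTrp53 lines for that gene, on a colour scale from -4 (blue) to 4 (red) that larger values exceed. Genes are ordered by sgKmt2c line 1, in which 17 of the 22 response genes and 8 of the 23 transporters have their highest level and *Slc38a1*, *Slc38a4* and *Slc7a2* are near or at 0 reads.

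Of the response genes, *Sesn2* and *Ddit4* had an unadjusted p-value under 0.05 (limma), 2 of 22 beside 8.58% of all genes tested, and their genotypes did not overlap, 2 of 22 beside 16.2%. *Sesn2*, a leucine sensor that restrains mTORC1 and is a target of both p53 and ATF4, stood at 6.51, 5.52 and 6.47 RPKM in the sgTrp53 lines and 22.5, 11.9 and 18.6 RPKM in the sgKmt2c lines, with a log2 fold change of 1.34 (SE 0.28, adjusted p = 0.294, limma). *Ddit4*, which also restrains mTORC1 and is a p53 target, stood at 30.3, 41.8 and 30.3 RPKM and at 162, 43.8 and 95.4 RPKM, with a log2 fold change of 1.36 (SE 0.46, adjusted p = 0.506, limma). Of 31 symbols listed for amino acid sensing upstream of mTORC1, some of them older names of the same gene, 28 were in the table. All 28 were tested, and 0 passed in either direction. Their log2 fold changes were above 0 for 7 and below 0 for 21, with a median of -0.21 (all genes tested -0.09). The genotypes lay apart for 1 of the 28 higher and 4 lower in the sgKmt2c lines, beside 16.2% of all genes tested in either direction. Of the 28, only *Sesn2* and *Lamtor3*, a subunit of the lysosomal Ragulator complex, had an unadjusted p-value under 0.05 (limma), beside 8.58% of all genes tested. *Lamtor3* stood at 54.1 to 59.0 RPKM in the sgTrp53 lines and 40.5 to 46.9 RPKM in the sgKmt2c lines (log2 fold change -0.40, SE 0.17, adjusted p = 0.580, limma). Of 23 symbols of amino acid and peptide transporters outside the chosen families and name pattern, again with an older name included, 20 were in the table. Of these, 13 were tested and 0 passed. Of the 13, *Slc15a3* and *Slc25a13* had an unadjusted p-value under 0.05 (limma), beside 8.58% of all genes tested. The peptide and histidine transporter *Slc15a3* stood at 7.13, 2.72 and 6.31 RPKM in the sgTrp53 lines and at 0.513, 0.655 and 2.26 RPKM in the sgKmt2c lines (log2 fold change -1.59, SE 0.45, adjusted p = 0.427, limma), on 1 to 18 reads a library. The mitochondrial aspartate-glutamate carrier *Slc25a13* stood at 28.7, 15.2 and 22.0 RPKM and at 15.2, 13.4 and 9.73 RPKM (log2 fold change -0.71, SE 0.30, adjusted p = 0.581, limma).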

How the data were processed

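RNA-seq libraries of 3 *Myc*; sgTrp53 and 3 *Myc*; sgKmt2c lines were compared, grouped by their sample labels, and all were run on the same 2 lanes of 1 flow cell. The authors trimmed reads with Trimmomatic, used STAR for alignment to GRCm38 (mm10) and HTSeq for counting, and deposited RPKM values per gene and library, normalized to 1 listed transcript length and to the reads on genes. The HTSeq strand setting and the STAR and HTSeq versions are not given in the sources used here, so overlapping genes are uncertain. The table had 21065 genes, of which 209 had no values, and 6 further sample columns were not used. A deposited table of the authors' DESeq2 1.8.2 comparison (mean normalized count, fold change, error, statistic and p-values) was not used. RPKM times length gave whole reads for 100% of values (tolerance 0.01 read), 3680068 to 6878625 reads a library. At 2 kb, 1 read is 0.0726 to 0.136 RPKM, and such limits cover counting error only. Replicates differed beyond sampling noise (chi-square per gene at least 28.5).

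Because the unit was RPKM, limma 3.58.1 (R 4.3.3; lmFit, eBayes with trend, genotype as the only term, two-sided) was fitted to log2(RPKM + 1) over 11617 genes that stood at 1 RPKM or more in 3 or more libraries, with Benjamini-Hochberg adjustment over all of them. A fold change on this scale understates that of low genes. Confidence intervals are 95%. The limma p-values set the difference between the genotypes against the spread between these lines, moderated over all genes tested. The test was checked on simulated data. Folds against lines at 0 used 3 reads per library as the floor. Members and gene lists were chosen with earlier results of these data known. Members named with values were those with an unadjusted p-value under 0.05, the 10 most abundant, the 10 of largest log2 fold change, a fixed list (both heavy chains, *Slc7a5*, *Slc7a11*, *Slc1a5*, *Slc38a2*, *Slc7a1*, *Slc38a9* and *Slc43a2*), and those under the filter with over 10 reads in each line of a genotype; others are said to be chosen after their values were seen. Alternatives changed the pseudocount (0.1), filter, scaling (median-of-ratios, quantile), the test (voom on recovered reads, no trend), a replicate block, sgKmt2c lines 2 and 3 averaged, and each line left out. Transcript lengths were compared with GENCODE vM1, all 49 members matched a RefSeq gene of GRCm38.p6, and plots were drawn with matplotlib 3.10.9.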

Additional observations from a re-analysis of the deposited data

How the results depend on the processing

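No member passed the adjusted threshold under any of 14 alternatives (lowest adjusted p = 0.0778, limma, *Slc38a1* without sgKmt2c replicate 3). Of 322 log2 fold changes of the 23 tested members under alternatives, 289 kept their sign and 33, from 12 members, changed it; the cause was not tested. With median-of-ratios scaling *Slc38a2* was 0.0505 and *Slc7a1* 0.0609, and with quantile normalization 0.0206 and 0.0106. With sgKmt2c replicates 2 and 3 averaged *Slc38a2* was 0.0665, *Slc7a5* -0.075, *Slc7a2* -0.64 and *Slc36a1* -0.0139. *Slc7a2* was -0.62 with a pseudocount of 0.1 and -1.10 with voom. Leaving out each line in turn gave -0.38 to 0.0214 for *Slc6a6*, -0.22 to 0.18 for *Slc38a2*, -0.36 to 0.27 for *Slc7a5*, -0.36 to 0.24 for *Slc7a1*, -0.21 to 2.77 for *Slc7a11*, -0.0112 to 0.68 for *Slc1a4*, -0.14 to 0.30 for *Slc38a7*, -0.82 to 1.69 for *Slc7a2*, -0.58 to 0.72 for *Slc6a9*, -0.0582 to 0.86 for *Slc43a2*, -0.0915 to 1.10 for *Slc36a4* and -0.13 to 0.25 for *Slc36a1*. Scaling moved the median of all genes from -0.09 to -0.02 (median-of-ratios) and -0.01 (quantile).

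Members whose genotypes did not overlap numbered 4 of 44 with no filter on low values (13.2% of all genes), 1 of 23 with quantile normalization (16.1%), 6 of 23 with sgKmt2c replicates 2 and 3 averaged (28.9%) and 0 to 6 of 23 with a line left out (22.3% to 32.4%), since fewer lines overlap less. Members with an unadjusted p under 0.05 (limma) numbered 1 without trend (8.35% of all genes), 1 with sgKmt2c replicates 2 and 3 averaged (9.06%), 3 with no filter (7.32%), median-of-ratios (8.26%) or quantile scaling (8.32%), where *Slc6a8* joined under both scalings, and 0 to 4 with a line left out (4.85% to 12.7%). Same-numbered lines had correlations of 0.19, 0.40 and 0.03 in their deviations from the genotype means, so the numbers were not taken as pairs; with the replicate block 3 members had an unadjusted p under 0.05 and 0 of all genes were called (limma, with 1085 at an unadjusted p under 0.05). With 3680068 reads in the shallowest library, the members under the filter cannot be compared beyond their reads.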
